A study of Mus musculus with 39 samples.

Results

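Cytochrome P450 genes were examined in 39 RNA-seq libraries of mouse intestine. The set holds 63 genes: those annotated as protein_coding whose symbol reads Cyp, digits, a letter and digits, with at least 39 counts summed over the 39 libraries. Of 93 genes with such a symbol, 27 lay below that minimum and 3 (Cyp1a1, Cyp1b1 and Cyp4a10) were left out by name. The genes were thus chosen by their summed count, and the level of a gene over all libraries is no finding here. Just inside the minimum were Cyp2j8 with 39 counts and Cyp2b23 and Cyp2d9 with 41 each. Just outside were Cyp2d12 with 30 counts and Cyp4a29 and Cyp4a31 with 29 each. Below it also lay Cyp7a1 (5 counts), which starts bile acid synthesis in the liver, and Cyp24a1 (3 counts), which inactivates vitamin D.

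The libraries came from C57BL/6 mice that all carry the Apc Min allele on 1 chromosome (Apc Min/+), a truncating mutation that gives rise to intestinal adenomas. They form 4 groups: 17 tumours of mice that also carry the ADAM17 ex/ex alleles, 6 samples of non-tumour intestine around tumours of such mice, 12 tumours of ADAM17 wt/wt mice and 4 samples of non-tumour intestine of wt/wt mice. ADAM17 is a membrane protease that sheds growth factor precursors and cytokines, and ex/ex is known as a hypomorphic allele pair present in the whole animal. The labels give neither the age or sex of the mice nor the stretch of intestine, and they name no animal, so several samples may share one and p-values then measure the spread between these samples. In this text wt means ADAM17 wt/wt.

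P450 enzymes are haem proteins of the endoplasmic reticulum or the mitochondrial inner membrane that insert an oxygen atom into their substrate. In the small intestine the differentiated enterocytes of the villus carry most of them, and CYP3A enzymes there oxidise drugs before they reach the blood. Other families hydroxylate fatty acids and leukotrienes (CYP4), open a route to bile acids (CYP27, CYP39, CYP7), degrade retinoic acid (CYP26) or make steroid hormones (CYP11, CYP17, CYP21). Many xenobiotic members are induced in the liver by the nuclear receptors PXR (Nr1i2) and CAR (Nr1i3).

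The genes fell into families by symbol, with 33 of family 2, 12 of family 4, 7 of family 3, 2 each of families 26 and 27, and 1 each of 7 others. By role, 31 were classed as xenobiotic, 17 as fatty acid and eicosanoid, 4 as bile acid and cholesterol, 3 as steroid hormone, 2 as retinoic acid and 2 as vitamin D, and 4 were unclassed. What they share in sequence is the loop that binds the haem iron through a cysteine. A coding pattern for this loop was found in 57 of the 63 genes, with the cysteine codon TGC in 33 and TGT in 24. The windows below are from GENCODE M21 coding sequences, with the cysteine codon in capitals. They are shown because Cyp3a11, Cyp3a44 and Cyp2c66 carry much of the comparison between genotypes and have close relatives whose reads can be mixed up with theirs.
Cyp3a11: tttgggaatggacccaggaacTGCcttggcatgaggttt
Cyp3a44: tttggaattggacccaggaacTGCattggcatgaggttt
Cyp3a13: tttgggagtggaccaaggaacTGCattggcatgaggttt
Cyp2c65: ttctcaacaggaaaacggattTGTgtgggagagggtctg
Cyp2c66: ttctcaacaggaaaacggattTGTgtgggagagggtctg

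In GRCm38 Cyp3a11 lies at chr5:145854426-145879964 and Cyp3a44 at chr5:145773983-145805874, both on the minus strand, and Cyp2c65 at chr19:39061015-39093944 and Cyp2c66 at chr19:39113898-39187072, both on the plus strand. Cyp2c65 and Cyp2c66 have the same window, and 96.3% of their aligned coding bases are identical. Cyp3a11 and Cyp3a44 are identical at 94.9% of coding bases, and their windows differ at 3 of 39 bases. Cyp3a11 and Cyp3a13 are identical at 76.5%. Of the 50-base stretches of the Cyp3a11 transcript, 14.8% occur in another gene, as do 26.5% for Cyp3a44 and 24% for Cyp2c66. Reads that align to several places were set aside in the deposited tables, so levels of these genes are uncertain to that extent.

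The promoter letters below are the 150 bases before the transcription start (RefSeq, GRCm38.p6): chr5:145879855-145880004 on the minus strand for Cyp3a11, and chr19:39060856-39061005 and chr19:39113748-39113897 on the plus strand for Cyp2c65 and Cyp2c66. They are shown because these genes were called lower in ex/ex tumours than in ex/ex non-tumour tissue below. In wt only Cyp3a11 of them was called. Capitals mark CAAAGTCCA, a form of the element bound by the nuclear receptor HNF4, and in Cyp2c66 the 9 bases aligned with the element of Cyp2c65.
Cyp3a11: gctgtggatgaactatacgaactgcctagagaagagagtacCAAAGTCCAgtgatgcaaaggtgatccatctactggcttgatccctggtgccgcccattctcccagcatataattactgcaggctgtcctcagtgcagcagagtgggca
Cyp2c65: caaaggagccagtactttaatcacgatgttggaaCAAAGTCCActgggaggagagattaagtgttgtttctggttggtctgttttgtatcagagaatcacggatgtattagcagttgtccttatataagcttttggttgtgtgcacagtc
Cyp2c66: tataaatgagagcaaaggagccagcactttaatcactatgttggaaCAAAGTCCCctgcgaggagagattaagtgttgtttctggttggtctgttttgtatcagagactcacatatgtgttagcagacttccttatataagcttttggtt

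The element begins 109 bases before the RefSeq start in Cyp3a11 and 116 bases before it in Cyp2c65. In GENCODE M21 the 5′ end of Cyp3a11 lies further upstream, at base 145879964, so by that annotation its element is inside the gene. The Cyp2c66 bases differ from it by A9C, counted from 1 at the 5′ end of the Cyp2c65 element, and 127 of 138 aligned promoter bases are identical between the pair. On either strand of these windows CAAAGTCCA was present in 8 of the 53 P450 genes with a RefSeq promoter (15.1%): Cyp2c40, Cyp2c65, Cyp2c67, Cyp2c68, Cyp2c69, Cyp2c70, Cyp3a11 and Cyp3a16. It was present in 0.271% of all 32851 promoters. These genes belong to 2 subfamilies of near relatives, so their matches are not independent. Cyp2c65, Cyp2c70 and Cyp3a11 of them fell in ex/ex tumours below, Cyp2c67 and Cyp2c68 were not called there, and the rest were not tested. TATAAA, the TATA box, was present in 17 of the 53 (32.1%) and in 7.57% of all promoters. The letters AGATAA, bound by GATA factors, were in 6 (11.3%) and in 5.65% of all promoters. TTGCNNAA, a form of the C/EBP element, was in 10 (18.9%) and in 5.46% of all promoters. A CDX element was in 5 (9.43%) and in 5.81% of all promoters, and the AHR element in 1 (1.89%) and in 2.58%. No member window held CAAAGGTCA, the other form of the HNF4 element (0.244% of all promoters), TGTTTAC of FOXA factors (1.80%), or the HNF1 element or the everted repeat of PXR and CAR. A P450 gene was counted where any of its promoters matched, and 5 genes have more than 1, while all promoters were counted singly. The shares are therefore not measured alike. Each motif was searched on both strands, and a match is only a match of letters.

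Depth was 5668185 to 11112321 gene counts in 38 libraries and 438639 in wt non-tumour library 1. In that library 1 count is worth 6.05 CPM (counts per 1000000 gene counts after TMM scaling, as everywhere here), so genes listed at 0 there may still be present. Its TMM factor was 0.377, against 0.716 to 1.43 in the others. Adam17 was read as a check of the labels. It had 14.5 to 33.5 CPM in ex/ex tumours and 38.4 to 85.8 CPM in wt tumours, which do not overlap, and 9.64 to 14.6 CPM in ex/ex non-tumour tissue, against 6.05, 48.4, 50.7 and 63.4 CPM in wt non-tumour tissue. The 6.05 CPM of the shallow library wt non-tumour 1 is 1 count, too few to check its label, and each wt non-tumour result is also fitted without it. The log2 fold change of Adam17 in ex/ex against wt was −1.21 ± 0.14 in tumours (adjusted p = 7.2e-08) and −2.08 ± 0.25 in non-tumour tissue (adjusted p = 1.2e-06). Of the ex/ex libraries 5 (tumours 1, 2 and 3, non-tumour 1 and 2) were low in Xist (0.577 to 3.57 CPM) and high in Ddx3y (33.9 to 44.1 CPM). The other 34 libraries, which include every wt library, held Xist at 157 to 709 CPM and Ddx3y at up to 0.776 CPM. By these sex-linked genes both ex/ex groups are mixed in sex and the wt groups are not. Sex, which the labels do not give, is thus not matched between the genotypes. An alternative below leaves these 5 libraries out. Ex/ex non-tumour libraries 3 and 4 stood apart in genes of the proximal small intestine (16928 and 19572 summed CPM, against 2472 to 5645 in the other 4). Library 4 also held 69563 summed CPM of a list of 6 stomach genes, against 7.08 to 54.5 CPM in the rest of its group. The part of this in the P450 results was not tested. A list of 10 hepatocyte genes, read because liver is the main site of many of these enzymes, summed to 77.9 to 352 CPM in ex/ex tumours, against 723 to 1163 CPM in ex/ex non-tumour tissue, without overlap, and to 66.5 to 340 CPM in wt tumours, against 254.03 to 924 CPM in wt non-tumour tissue. Of its 7 tested genes 4 fell (Alb, Ttr, Apoh and Cps1) and 2 rose in ex/ex tumours, and 1 fell in wt tumours (Cps1, a urea cycle enzyme that the small intestine also makes). Over all genes 23.3% were called lower and 23.8% higher in ex/ex tumours, and 3.15% lower in wt tumours. Fgb was at 0 in every library, and Alb had a median of 0 CPM in ex/ex tumours, 1.86 CPM in ex/ex non-tumour tissue and 5.38 CPM in wt tumours, where it reached 148 CPM. The part of this list in the P450 results was not tested. As a check of the tissue, 10 pan-epithelial genes summed to 3236 CPM or more in every library but wt tumour 4, which had 559 CPM and 3445 CPM of the B cell list.

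Here CPM means the count of a gene for every 1000000 gene counts, after TMM scaling, and RPKM is CPM per kilobase of exon, used to compare genes. The P450 transcript with the highest mean differed by tissue. Cyp4f14, a fatty acid hydroxylase that inactivates leukotriene B4, averaged 363 ± 251.1 RPKM in ex/ex tumours, 443 ± 199 in ex/ex non-tumour tissue, 379 ± 185 in wt tumours and 359 ± 218 in wt non-tumour tissue (SD). Cyp3a13, the main intestinal CYP3A in mouse, averaged 238.6 ± 228 RPKM in ex/ex tumours, 572 ± 224 in ex/ex non-tumour tissue, 265.3 ± 170.4 in wt tumours and 537 ± 168 in wt non-tumour tissue. Cyp3a13 was above Cyp4f14 in 0 of 17 ex/ex tumours, 5 of 6 ex/ex non-tumour libraries, 2 of 12 wt tumours and 4 of 4 wt non-tumour libraries. By the mean over all 39 libraries, in which tumours weigh most, next came Cyp4v3 (184 RPKM), a fatty acid omega-hydroxylase, Cyp2d26 (151 RPKM), Cyp2j6 (102 RPKM), an arachidonic acid epoxygenase, Cyp3a25 (91.0 RPKM) and Cyp3a11 (80.6 RPKM). These 7 genes made up 77.8% of the summed RPKM of the set over all libraries.

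The summed CPM of the 63 genes spanned 521 to 12630 in ex/ex tumours (median 3724), 5055 to 11472 in ex/ex non-tumour tissue (median 7398) and 444 to 7229 in wt tumours (median 3555). The 4 wt non-tumour libraries had 3302, 8205, 8675 and 4519. Tumours were thus lower by median, with wide overlap: ex/ex tumours 1 and 2, at 12630 and 12171, were above every non-tumour library. Lowest were wt tumour 4 (444) and ex/ex tumours 4 and 5 (521 and 570). In bulk tissue fewer P450-bearing cells and less P450 RNA per cell cannot be told apart.

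**Figure D1:**
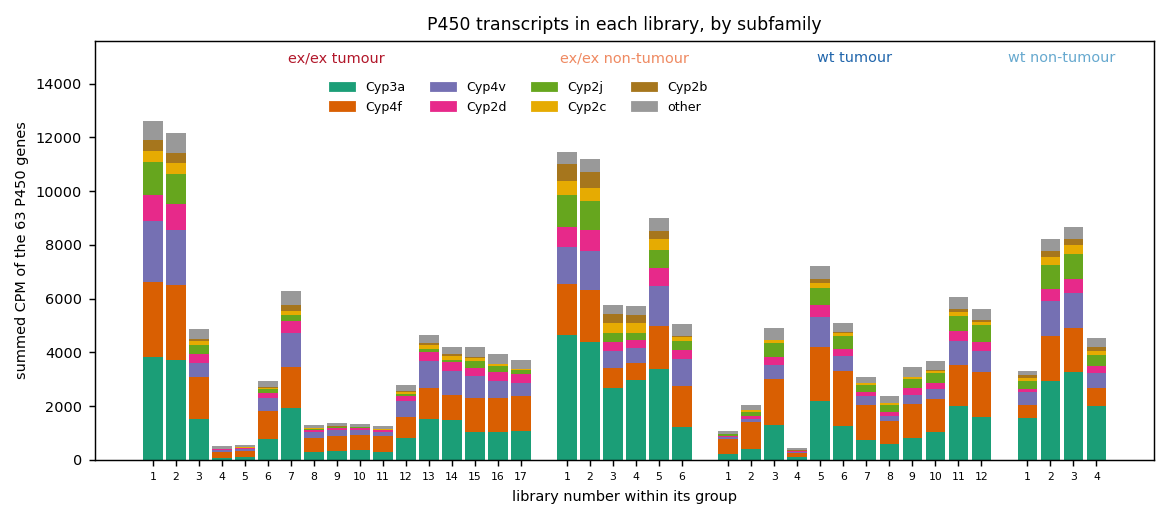
Summed CPM of the 63 P450 genes in each library, stacked by subfamily, with the groups from left to right and library numbers on the horizontal axis. Ex/ex tumours 1 and 2 reach 12630 and 12171, above all non-tumour libraries, while ex/ex tumours 4 and 5 and wt tumour 4 are under 600.

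The sum moved with a list of 12 enterocyte markers (such as Alpi, Fabp1 and Sis, none of them a P450). That list summed to 4703 to 114297 CPM in ex/ex tumours, 28800 to 84257 CPM in ex/ex non-tumour tissue, 1950 to 67626 CPM in wt tumours and 22772 to 69731 CPM in wt non-tumour tissue. As a percentage of the enterocyte sum, the P450 sum was 8.51 to 11.5% in ex/ex tumours against 11.9 to 19.8% in ex/ex non-tumour tissue, which do not overlap. It was 9.07 to 22.7% in wt tumours against 10.6 to 14.5% in wt non-tumour tissue, which do. The 22.7% is wt tumour 4, with 1950 CPM of the enterocyte list and 559 CPM of the pan-epithelial list. Without that tumour the ranges overlap only through wt non-tumour library 4, at 10.6%. Of the enterocyte list 3 of 12 genes fell in ex/ex tumours against ex/ex non-tumour tissue, beside 23.3% of all genes called lower there, and 0 of 12 were called in the other comparisons. A list of 8 B cell genes ran the other way in many tumours. It exceeded 1000 summed CPM in 15 of 17 ex/ex tumours and 3 of 12 wt tumours, and reached at most 51.4 CPM in ex/ex and 66.5 CPM in wt non-tumour tissue.

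**Figure D2:**
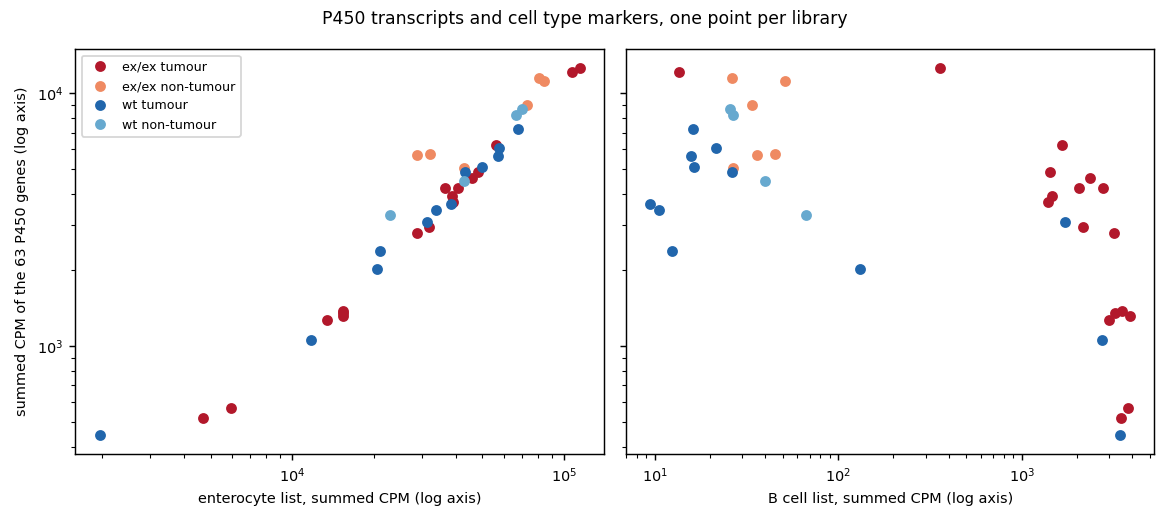
Summed CPM of the 63 P450 genes (vertical, log axis) against the summed CPM of 12 enterocyte markers (left) and 8 B cell markers (right), with a point for each library coloured by group. The P450 sum rises with the enterocyte sum across libraries, and ex/ex non-tumour libraries 3 and 4, with 5780 and 5709 CPM, lie above the other points at like enterocyte sums.

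Tests ran over the 16327 genes with enough counts, 39 of the 63 P450 genes among them. The other 24 had 39 to 171 counts in all, and include Cyp27b1, Cyp26a1 and Cyp46a1. A gene can enter the test through the group in which it is high, so counts over the 39 are descriptions. A gene is called where its adjusted p is under 0.05 by the quasi-likelihood test of edgeR, with p-values adjusted after Benjamini and Hochberg over the 16327 genes, and all adjusted p-values below come from that test. Ex/ex tumours enter 2 of the comparisons and so do wt tumours, so the comparisons are not independent of each other.

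Between ex/ex tumours and ex/ex non-tumour tissue, 15 P450 genes fell and 1 rose, of 39 tested; over all genes 47.1% were called, 23.3% lower and 23.8% higher. The median log2 fold change of the 39 was −0.83, and that of all genes tested −0.03. The genes that fell were mostly xenobiotic: Cyp2c23, Cyp2c29, Cyp2c38, Cyp2c55, Cyp2c65, Cyp2c66, Cyp2c70, Cyp2b10, Cyp2e1, Cyp3a11, Cyp3a13 and Cyp3a59. The others were Cyp4f15 and Cyp2j9 of the fatty acid class and Cyp39a1 of the bile acid class. Among the most abundant genes without a call were Cyp4f14, Cyp4v3, Cyp2d26 and Cyp2j6.

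Cyp3a11, which oxidises many drugs and is induced by PXR in liver, had 7.64 to 1054 CPM (median 226) in ex/ex tumours and 270 to 1615 CPM (median 1231) in ex/ex non-tumour tissue. Ex/ex non-tumour library 6 was low, at 270 CPM and within the tumour range, while the other 5 lay at 1075 CPM or above, over every ex/ex tumour. Its log2 fold change was −1.84 ± 0.58 (SE, adjusted p = 0.00982). Cyp3a13 had 48.7 to 2307 CPM (median 665) in ex/ex tumours and 793 to 2494 CPM (median 1659) in ex/ex non-tumour tissue. It fell by 1.26 ± 0.52 on the log2 scale (adjusted p = 0.0438), a call that 4 of the 6 fits leaving out a single ex/ex non-tumour library end. Cyp3a11 made up 5.61 to 29.2% of the summed CYP3A RPKM in ex/ex tumours (median 15.4%) and, in the non-tumour tissue of these mice, 13.4 to 29.7% (median 22.6%).

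Cyp2b10, the classic CAR target, had 0.196 to 382 CPM (median 31) in ex/ex tumours and 40.8 to 634 CPM (median 321) in ex/ex non-tumour tissue. The groups overlap, with ex/ex tumours on both sides of the lowest non-tumour library, and the log2 fold change was −2.24 ± 0.91 (adjusted p = 0.0411). Leaving out any of ex/ex non-tumour libraries 1 to 5 ended that call. Cyp2c65, an arachidonic acid metabolising enzyme of the intestine, had 2.34 to 242.9 CPM (median 42.0) in ex/ex tumours and 68.4 to 289 CPM (median 247.9) in ex/ex non-tumour tissue. It fell by 1.82 ± 0.60 (log2, adjusted p = 0.0134). Its neighbour and near copy Cyp2c66 had 0 to 73.5 CPM (median 4.39) in ex/ex tumours and 10.3 to 123 CPM (median 83.6) in ex/ex non-tumour tissue, and it fell by 2.59 ± 0.77 (log2, adjusted p = 0.00667). For this pair too, ex/ex non-tumour library 6 was the low one and ex/ex tumours 1 and 2 were the high ones.

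Cyp2c38 had 0 to 1.99 CPM (median 0.0865) in ex/ex tumours and 0.545 to 8.25 CPM (median 2.96) in ex/ex non-tumour tissue, with a log2 fold change of −3.43 ± 0.65 (adjusted p = 9.99e-05). Cyp2e1, which oxidises ethanol and small solvents, had 0.192 to 3.34 CPM (median 0.481) in ex/ex tumours and 0.730 to 9.18 CPM (median 5.30) in ex/ex non-tumour tissue. It fell by 2.64 ± 0.54 (log2, adjusted p = 0.000248). Both were expressed at low levels, and their groups overlap. Cyp2c29 and Cyp2c70, whose counts in all 17 ex/ex tumours summed to 12 and 17, also fell; with tumours mostly at 0 their fitted fold change depends on the prior count and is not given as a size.

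In the fatty acid class, Cyp4f15 fell by 3.35 ± 0.46 (log2, adjusted p = 9.82e-07), with 0.0744 to 2.84 CPM (median 0.698) in ex/ex tumours and 1.85 to 20.7 CPM (median 5.77) in ex/ex non-tumour tissue. Ex/ex non-tumour libraries 3 and 4 had 19.2 and 20.7 CPM and the other 4 had 1.85 to 5.90. Cyp4f14 had 135 to 2214 CPM (median 845) in ex/ex tumours and 420 to 1501 CPM (median 1275) in ex/ex non-tumour tissue, and its log2 fold change of −0.29 ± 0.47 was not called (adjusted p = 0.627). Cyp4f15 and Cyp4f14 share 82.1% of their coding bases and lie close together on chromosome 17.

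Cyp4f18, which inactivates leukotriene B4 in mouse neutrophils, was the gene that rose, by 2.64 ± 0.63 (log2, adjusted p = 0.00106). It had 1.99 to 40.2 CPM (median 27.2) in ex/ex tumours and 1.53 to 7.08 CPM (median 4.37) in ex/ex non-tumour tissue. The level moved with the B cell list: the 15 ex/ex tumours above 1000 summed CPM of that list had 16.8 to 40.2 CPM of Cyp4f18, and the other 2 had 1.99 and 7.32. With the B cell list as a covariate its log2 fold change was −0.41 (adjusted p = 0.362), and over the 22 alternatives the adjusted p ranged over 9.6e-10 to 0.467. Cyp4f18 overlaps Zfp961 on the opposite strand, and whether the counting used strand is not given in the sources used here.

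Cyp39a1, an oxysterol hydroxylase of bile acid synthesis, fell by 0.73 ± 0.13 (log2, adjusted p = 4.19e-05), with 7.64 to 16.4 CPM (median 11.7) in ex/ex tumours and 16.3 to 25.9 CPM (median 19) in ex/ex non-tumour tissue. A single tumour lay above the lowest non-tumour library, and this call was kept in 22 of 22 alternatives. Cyp27a1, the mitochondrial sterol hydroxylase, had 24.2 to 230 CPM (median 73.8) in ex/ex tumours and 66.3 to 210 CPM (median 153) in ex/ex non-tumour tissue (log2 fold change −0.51 ± 0.45, adjusted p = 0.35). Cyp7b1, another oxysterol hydroxylase, had medians of 2.63 and 2.60 CPM in these groups and was not called. Cyp2r1, a vitamin D 25-hydroxylase, had medians of 1.44 and 1.14 CPM (log2 fold change 0.23 ± 0.25, adjusted p = 0.452).

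**Figure D3:**
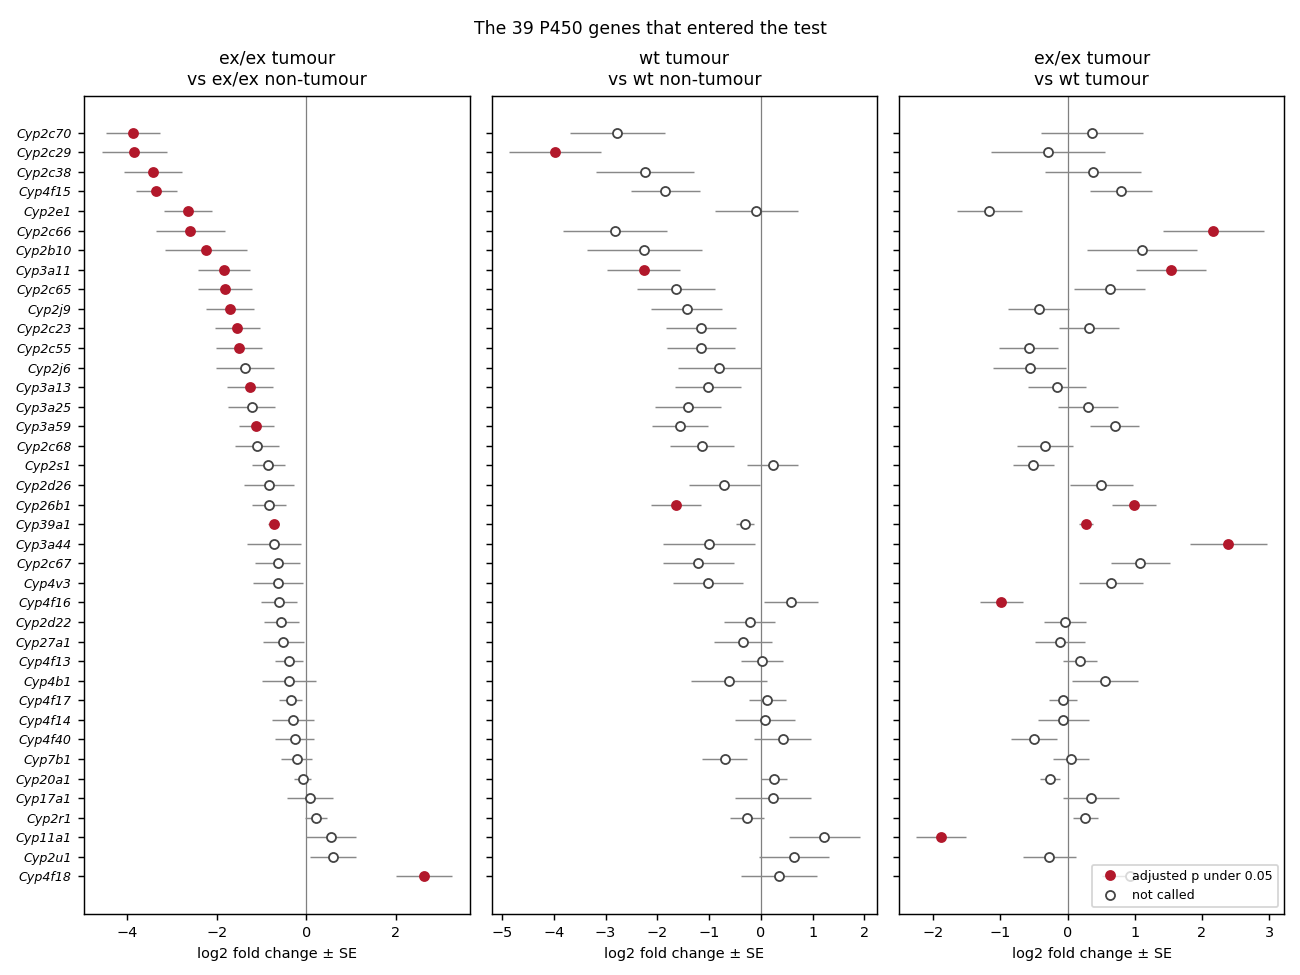
Log2 fold changes ± SE of the 39 P450 genes that entered the test, in ex/ex tumours against ex/ex non-tumour tissue, wt tumours against wt non-tumour tissue and ex/ex tumours against wt tumours, with filled points for adjusted p under 0.05. In the first panel 15 filled points lie below 0 and Cyp4f18 lies above it at 2.64.

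The lower calls were sensitive to 2 of the marker covariates. With the mean of the B cell list in the fit 6 P450 genes were called and 2 of the 16 calls were kept (Cyp4f15 and Cyp39a1), and with the proximal and distal intestine lists 1 was kept (Cyp39a1). Over all genes 23.5% were called with the B cell list and 8.86% with the intestine lists. With the enterocyte list in the fit, where 36.0% of all genes were called, 14 of the 16 were kept and Cyp2c55 and Cyp3a59 were not. In that fit Cyp3a11 fell by 1.25 ± 0.28, Cyp2c66 by 2.08 ± 0.32 and Cyp2b10 by 1.86 ± 0.49 on the log2 scale, relative to enterocyte markers (adjusted p = 0.00089, 5.6e-06 and 0.0036). Cyp2u1, a fatty acid hydroxylase, rose by 1.34 ± 0.30 and Cyp26b1 fell by 1.31 ± 0.33 in that fit (log2, adjusted p = 0.00081 and 0.0022, edgeR), and neither was called in the fit with no covariate. Leaving out ex/ex non-tumour library 1 took the count of called P450 genes to 9, and leaving out library 2, its closest pair, to 12. Over all genes 41.8% and 41.7% were called in these fits.

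Between wt tumours and wt non-tumour tissue 3 P450 genes fell and none rose (Cyp2c29, Cyp3a11 and Cyp26b1); over all genes 5.05% were called, 3.15% lower and 1.9% higher. At an unadjusted p under 0.05 there were 11. The share of all genes at that cutoff was not counted, so this number has no background beside it. By limma-voom with quality weights 20 were called, with 37.5% of all genes. The median log2 fold change of the 39 was −0.80, that of all genes 0.07, and 28 of the 39 were negative in wt and 34 in ex/ex, with 27 negative in both. Cyp3a11 had 14.1 to 248.4 CPM (median 102) in wt tumours, against 405, 613, 670 and 459 CPM in wt non-tumour tissue, and these do not overlap. The 405 CPM of the shallow library 1 is 67 counts under a TMM factor of 0.377, so its place above the tumours rests on that scaling. Cyp3a11 fell by 2.27 ± 0.70 (log2, adjusted p = 0.0489), and 15 of 23 alternatives ended the call. Cyp2c66 had 0.173 to 10.4 CPM (median 1.58) in wt tumours, against 12.1, 26, 28.7 and 12.5 CPM in wt non-tumour tissue, and missed the threshold (log2 fold change −2.82 ± 1.01, adjusted p = 0.0919). These do not overlap, but the 12.1 CPM of library 1 is 2 counts, 1 of which decides this. Cyp2c29 was at 0 to 0.468 CPM in wt tumours, against 0, 1.11, 2.95 and 1.0 CPM in wt non-tumour tissue.

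Cyp26b1, which degrades retinoic acid, had 1.52 to 15.8 CPM (median 2.59) in wt tumours, against 0, 5.24, 2.95 and 35.3 CPM in wt non-tumour tissue. It fell by 1.64 ± 0.48 (log2, adjusted p = 0.038), and this rests on wt non-tumour library 4: without it the log2 fold change was 0.16. That library had 1026 summed CPM of the endothelium list, against 103 to 145 CPM in the other 3 wt non-tumour libraries, and the part of this in the result was not tested. For the other genes described in full, the wt tumour medians and the 4 wt non-tumour values were 690 CPM against 1065, 1871, 2130 and 1282 CPM for Cyp3a13, 36.1 CPM against 78.6, 176, 180 and 69.9 CPM for Cyp2c65, and 923 CPM against 321, 1356, 1280 and 514 CPM for Cyp4f14. None of these 3 was called in wt. With the enterocyte list in the fit 8 P450 genes were called in wt, 5 lower and 3 higher, and all 3 reported calls were kept. Over all genes 10.3% were called in that fit.

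The test of whether the tumour difference itself differed between genotypes called none of the 39 P450 genes, with 0.202% of all genes called, 0.0857% higher and 0.116% lower. At an unadjusted p under 0.05 there were 2, Cyp4f18 and Cyp2e1, again without a count over all genes at that cutoff. For Cyp3a11 the log2 difference between the tumour effects in ex/ex and wt was 0.43 ± 0.98, for Cyp2c66 0.23 ± 1.36 and for Cyp2b10 0.01 ± 1.5. The larger number of calls in ex/ex is therefore not shown to be a larger effect. DESeq2 also called 0, with 0.815% of all genes, and limma-voom with quality weights called 12, in a fit that called 51.8% of all genes.

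**Figure D4:**
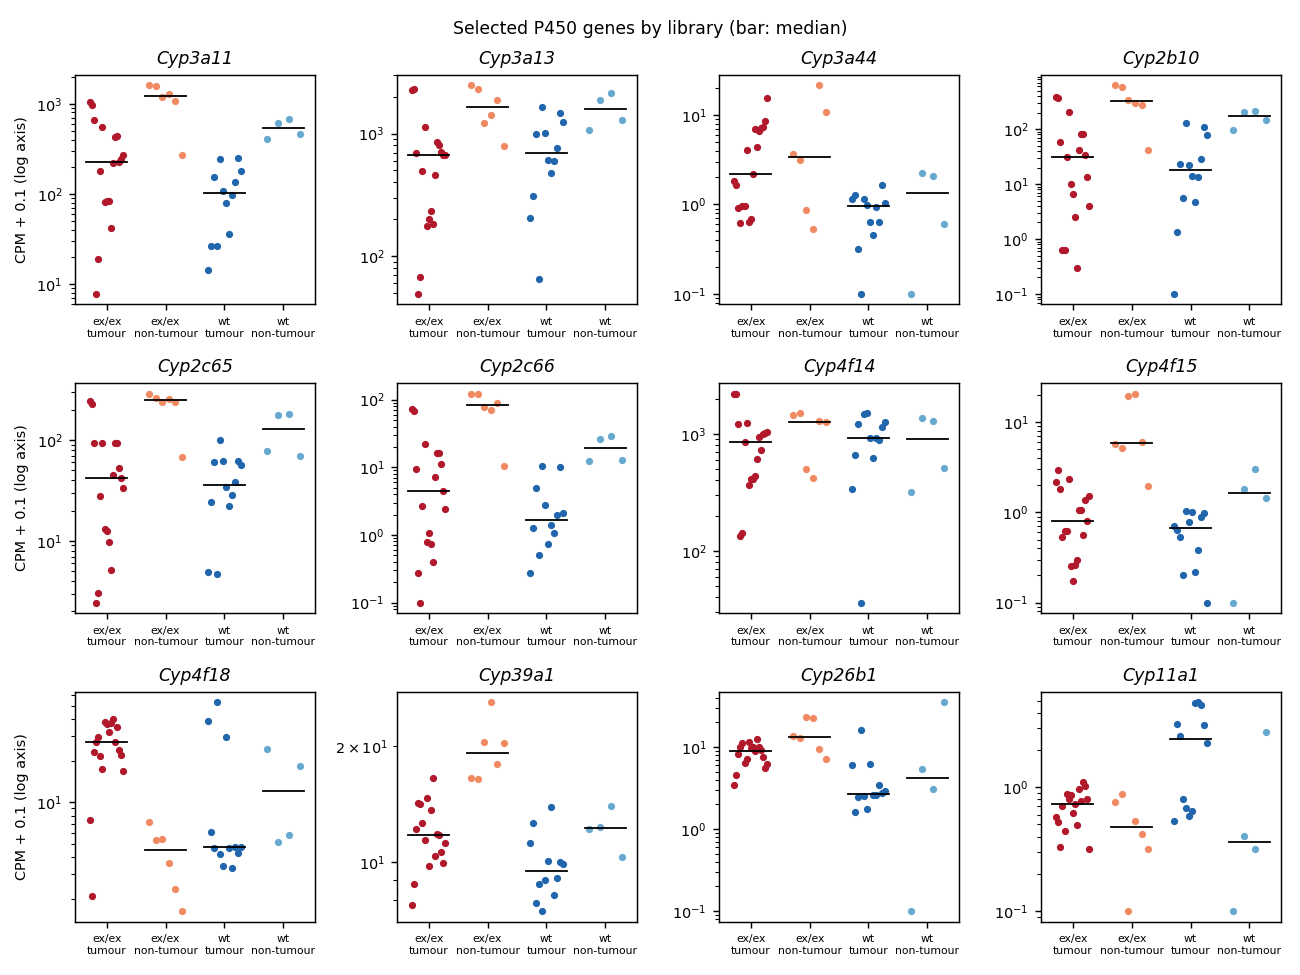
CPM plus 0.1 on a log axis of 12 P450 genes in each library, by group, with a bar at the median. Cyp3a11 in the 12 wt tumours (14.1 to 248.4 CPM) lies below all 4 wt non-tumour libraries (405 to 670 CPM), and Cyp4f14 overlaps between all groups. The 405 CPM is the shallow wt non-tumour library 1, whose place above the tumours rests on its TMM factor of 0.377.

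Between ex/ex tumours and wt tumours 5 P450 genes were higher (Cyp3a44, Cyp2c66, Cyp3a11, Cyp26b1 and Cyp39a1) and 2 lower (Cyp11a1 and Cyp4f16); over all genes 33.3% were called, 15.2% higher and 18% lower. The share of P450 genes called, 7 of 39, is below that of all genes. Their median log2 fold change was 0.27, and that of all genes −0.01. For each of the 7 genes the levels of the groups overlapped.

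Cyp3a44, a CYP3A enzyme that in mouse liver is known to be higher in females, had 0.521 to 15.3 CPM (median 2.07) in ex/ex tumours and 0 to 1.54 CPM (median 0.861) in wt tumours. The 7 highest of all tumours were ex/ex tumours 11 to 17, at 4.33 to 15.3 CPM, while ex/ex tumours 3 to 6, 8 and 9 were within the wt range. Its log2 fold change was 2.40 ± 0.57 (adjusted p = 0.00161), ended in 1 of 24 alternatives, the fit to tumours rich in B cell genes. Many of the 24 leave out only non-tumour libraries, which are not part of this comparison and could hardly change it. In non-tumour tissue it had 0.438 to 21.5 CPM in ex/ex (libraries 5 and 6 at 21.5 and 10.6 CPM) against 0, 2.12, 1.97 and 0.502 CPM in wt.

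Cyp3a11 was higher by 1.54 ± 0.52 (log2, adjusted p = 0.0218) and Cyp2c66 by 2.17 ± 0.75 (log2, adjusted p = 0.0247), from the tumour values given above. Cyp3a11 made up a median of 15.4% of the summed CYP3A RPKM in ex/ex tumours and 6.40% in wt tumours (3.55 to 15.6%). For Cyp3a13, which had 48.7 to 2307 CPM (median 665) in ex/ex tumours and 65.2 to 1657 CPM (median 690) in wt tumours, the log2 fold change was −0.15 ± 0.44 (adjusted p = 0.816). Without the 5 ex/ex libraries low in Xist the calls of Cyp3a11 and Cyp2c66 were lost, and 13 of 35 P450 genes tested were called, 4 higher and 9 lower. Over all genes 49.4% were called in that fit.

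Cyp26b1 had 3.34 to 12.4 CPM (median 8.80) in ex/ex tumours and 1.52 to 15.8 CPM (median 2.59) in wt tumours (log2 fold change 0.99 ± 0.33, adjusted p = 0.0204). It followed the B cell list within wt, with 5.89, 6.08 and 15.8 CPM in the 3 tumours above 1000 summed CPM and 1.52 to 3.32 CPM in the other 9. Among tumours above 1000 only, its log2 fold change was −0.061. Cyp39a1 was higher by 0.27 ± 0.11 (log2, adjusted p = 0.0459). Cyp4f16, a CYP4F paralogue, had 27.3 to 346 CPM (median 87.5) in ex/ex tumours and 26.1 to 343 CPM (median 220) in wt tumours, and was lower by 0.98 ± 0.32 in ex/ex (log2 fold change −0.98, adjusted p = 0.019).

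Cyp11a1, the side chain cleavage enzyme that starts steroid synthesis, was lower in ex/ex tumours, with 0.22 to 1.0 CPM (median 0.637) against 0.433 to 4.77 CPM (median 2.34) in wt tumours. Its log2 fold change was −1.88 ± 0.37 (adjusted p = 0.000187). In wt the 7 tumours 2, 3 and 8 to 12 had 2.17 to 4.77 CPM and the other 5 had 0.433 to 0.705 CPM, within the ex/ex range. A lincRNA, Gm17322, overlaps it on the same strand. Cyp17a1, the steroid 17-hydroxylase, had medians of 0.989 CPM in ex/ex tumours and 0.825 CPM in wt tumours and was not called.

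When tumours were limited to those above 1000 summed CPM of B cell genes, 15 ex/ex and 3 wt, 0 of 40 P450 genes tested were called by edgeR. With the B cell list as a covariate in all tumours 21 were called, 20 of them higher in ex/ex. Over all genes 1.61% were called in that smaller fit and 23.3% with the covariate. The median log2 fold change of the P450 genes was 0.27 as reported, 0.72 in that smaller fit and 1.11 with the covariate. It was not positive in every alternative. It was −0.16 without the 5 ex/ex libraries low in Xist, −0.37 by limma-voom with quality weights and −0.011 without the filter on low counts. Leaving out wt tumours 1, 4 and 7 gave 0.034, and the other alternatives gave positive medians.

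**Figure D5:**
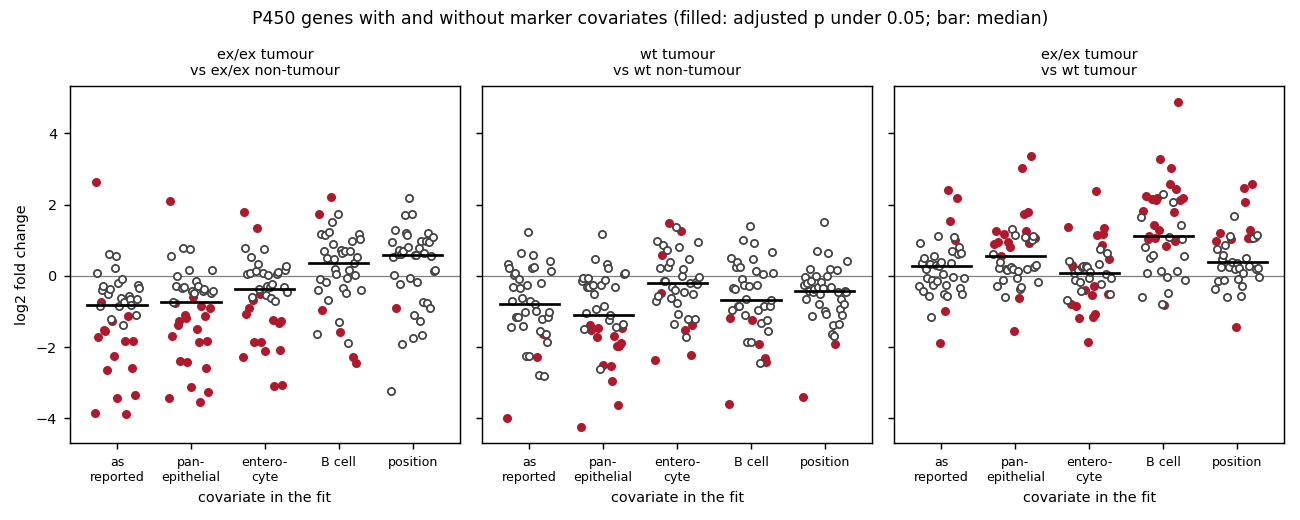
Log2 fold changes of the P450 genes tested, as reported and with a marker list as a covariate, in 3 comparisons, with filled points for adjusted p under 0.05 and a bar at the median. In ex/ex tumours against ex/ex non-tumour tissue the median is −0.83 as reported, −0.36 with the enterocyte list, 0.35 with the B cell list and 0.58 with the position lists.

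Between ex/ex and wt non-tumour tissue none of the 39 was called by edgeR (1.42% of all genes were, 0.398% higher and 1.02% lower). DESeq2 also called 0, with 1.86% of all genes called. An unadjusted p under 0.05 was seen for 3, and the share of all genes at that cutoff was not counted. Cyp39a1 had 16.3 to 25.9 CPM (median 19) in ex/ex and 12.1, 12.2, 13.9 and 10.2 CPM in wt, which do not overlap (the 12.1 CPM is 2 counts), but missed the threshold (log2 fold change 0.69 ± 0.20, adjusted p = 0.0704). Cyp3a11 had 270 to 1615 CPM (median 1231) in ex/ex and 405, 613, 670 and 459 CPM in wt (log2 fold change 1.11 ± 0.88, adjusted p = 0.795).

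Within ex/ex non-tumour tissue, libraries 3 and 4 differed from the other 4 in which P450 genes they held. In 8 genes both were above the other 4, in 17 both were below, and 38 overlapped. Of all 21593 genes with at least 39 counts, 17.3% were above and 15.3% below in this way, against 12.7% and 27% of the P450 genes. Above were Cyp4f15, Cyp2d10 (5.90 and 6.28 CPM against 0.322 to 0.393 CPM), Cyp2d34 (3.57 and 3.07 CPM against 0 to 0.429 CPM), Cyp2d9, Cyp4f17, Cyp26b1 (23.3 and 22.4 CPM against 7.08 to 13.6 CPM), Cyp27b1 and Cyp39a1. Below were abundant genes such as Cyp4f14 (504 and 420 CPM against 1257 to 1501 CPM), Cyp4v3 (626 and 557 CPM against 1020 to 1486 CPM) and Cyp2j6 (296 and 264.3 CPM against 342 to 1123 CPM). Cyp3a11 was not among them. Libraries 3 and 4 differed in stomach genes (32.6 and 69563 summed CPM). The labels do not give the position along the intestine, so this is a description without a test.

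Other genes of the pathway were read from 5 lists of electron carriers, regulators, conjugating enzymes and transporters, retinoid genes and vitamin D or calcium genes. Of 8 redox partners 6 fell in ex/ex tumours against ex/ex non-tumour tissue and none in wt, among them Por, the reductase that feeds electrons to microsomal P450s (log2 fold change −1.25, adjusted p = 0.0047), and Fdx1, the mitochondrial ferredoxin (−0.86, adjusted p = 0.0025). Of 28 regulators tested 16 fell in ex/ex tumours and 1 in wt. In ex/ex these include Nr1i3 (CAR, −2.0, adjusted p = 0.0083), Nr1i2 (PXR, −1.04, adjusted p = 0.03), Hnf4g (−1.27, adjusted p = 0.02) and Vdr (−1.47, adjusted p = 0.0016). Hnf4a, the other HNF4 gene on the list, had −0.63 and was not called (adjusted p = 0.13), and Ahr fell in both genotypes. Of 31 genes of conjugation and transport 17 fell and 1 rose in ex/ex tumours, with 2 lower in wt (Gstm3 and Gstt1). Gsta1, a glutathione transferase, fell by 4.08 (log2, adjusted p = 7.6e-08), and Abcb1b, a drug efflux pump, rose by 1.41 (log2, adjusted p = 0.0014). These shares lie beside 47.1% of all genes called in ex/ex (23.3% lower and 23.8% higher) and 5.05% in wt (3.15% lower and 1.9% higher).

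Of 9 retinoid genes tested 4 fell and 1 rose in ex/ex tumours and 3 fell in wt tumours. Over all genes 23.3% were called lower and 23.8% higher in ex/ex, and 3.15% lower in wt. Lrat, which esterifies retinol, fell by 1.21 in ex/ex and 1.62 in wt (log2, adjusted p = 8.0e-05 and 0.0004), and Aldh1a2 and Aldh1a3, which make retinoic acid, fell in both. Stra6, a retinol transporter, rose by 7.32 in ex/ex tumours (log2, adjusted p = 8e-10) and was lower in ex/ex than in wt non-tumour tissue by 5.84 (log2, adjusted p = 3.1e-06, log2 fold change −5.84). In ex/ex tumours against wt tumours the regulator Nr0b2 (SHP), a corepressor induced by bile acids, was higher by 3.25 (log2, adjusted p = 4.3e-07), and in non-tumour tissue by 3.94 (adjusted p = 0.0045). In that comparison of tumours 1 redox partner was lower (Por, log2 fold change −1.20, adjusted p = 0.0021), 2 regulators were higher and 9 lower, and 7 of 31 conjugation and transport genes were lower, beside 15.2% of all genes called higher and 18% lower. Of 3 vitamin D and calcium genes tested all fell in ex/ex tumours against ex/ex non-tumour tissue, beside 23.3% of all genes called lower there. The list summed to 95 to 258.4 CPM in ex/ex tumours, against 5611 and 7084 CPM in ex/ex non-tumour libraries 3 and 4 and 173 to 184 CPM in the other 4. The part of libraries 3 and 4 in these calls was not tested.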

How the data were processed

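The deposited tables hold whole-number counts of reads per gene, which the authors made from stranded poly(A) RNA-seq libraries (TruSeq stranded mRNA, per the labels' protocols) with Trimmomatic 0.36, TopHat2 2.0.14 and HTSeq on GRCm38, per the submitters' processing notes. For the counting, its annotation and strand setting: not given in the sources used here. These tables set aside 29.1 to 56.5% of reads as not aligned uniquely, and these special rows stayed out of library sizes. Gene names came from GENCODE M21, which matched 49326 of 49585 IDs; the others hold 0.0851% of counts.

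Counts were filtered with filterByExpr, scaled with TMM and fitted in 4 groups with edgeR 4.0.16 (R 4.3.3, quasi-likelihood test, Benjamini-Hochberg over 16327 genes). limma 3.58.1 and DESeq2 1.42.0 served as alternatives, as did other filters, left-out libraries and marker lists as covariates. Depth sets the precision of low genes, above all in wt non-tumour library 1. Every pair of libraries in a group differed by more than counting noise, so none was treated as a repeat deposit, which does not show that libraries come from separate animals. Ex/ex non-tumour libraries 1 and 2 were closest, at a chi-square of 2.11 per degree of freedom, against 19.6 for the next pair of that group and a median of 76.1, and each counts as 1 of its 6 replicates. Among ex/ex tumours the closest pairs were 4 and 5 (5.51), 8 and 9 (5.90), 13 and 14 (7.11), 1 and 2 (7.87) and 16 and 17 (8.84). The median of that group was 71.7, and each of these tumours also counts as a replicate. On simulated data (16327 genes), 32% of 2-fold and 99% of 4-fold changes were recovered in ex/ex tumours against ex/ex non-tumour tissue, and 18% and 85% in wt. The simulation gave all genes the same dispersion, changed only genes above a minimum level and held no differences in cell content. It therefore checks the fit and does not give the power for the P450 genes.

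The members and lists were chosen with earlier results of these data known. Genes named are, per comparison, up to 8 called genes with the largest change at an average log2 CPM of at least 0, the most abundant gene of each role class by RPKM, and all tested genes of the vitamin D, retinoic acid and bile acid classes. Others are named to complete a count or a description, chosen after their values were seen.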

Additional observations from a re-analysis of the deposited data

Results flagged for a closer look

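Groups of 4 to 10 libraries, here the non-tumour groups, were examined for a library far from the others. Among 42 combinations of such a group with a named gene or the P450 sum, 4 had one. Chance alone gives about 1 in 20 for independent and normal values, and these combinations share libraries, so that rate is only a guide. Cyp11a1 was 2.68 CPM in wt non-tumour library 4, against 0 to 0.303 CPM in the other 3. Cyp26b1 was 35.3 CPM in the same library, against 0 to 5.24 CPM in the other 3. Cyp2c65 was 68.4 CPM in ex/ex non-tumour library 6, against 236.6 to 289 CPM in the other 5. Cyp2r1 was 2.23 CPM in ex/ex non-tumour library 1, against 0.763 to 1.24 CPM in the other 5.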

How the results depend on the processing

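No paired analysis was possible because the labels give no replicate numbers or animals and the numbers used here follow accession order. Counts of called P450 genes moved most with the marker covariates and with limma-voom. For ex/ex against wt non-tumour tissue (0 as reported) the count was 3 with the enterocyte, 2 with the pan-epithelial, 2 with the B cell and 1 with the position lists, 1 without the libraries low in Xist and 6 by limma-voom. The shares of all genes called in these fits were, in the same order, 2.74, 3.27, 2.76, 4.98, 0.921 and 9.78%, against 1.42% as reported. For ex/ex tumours against ex/ex non-tumour tissue (16) it was 6 with the B cell list, 1 with the position lists, 31 by limma-voom, and 9 to 18 when leaving out single non-tumour libraries (9 without ex/ex library 1). Of all genes these fits called, in the same order, 23.5, 8.86, 72.3 and 41.7 to 48.6%, against 47.1% as reported. For ex/ex against wt tumours (7) it was 19 with the enterocyte, 16 with the pan-epithelial, 21 with the B cell and 11 with the position lists, 11 without wt tumours 1, 4 and 7, 13 without the libraries low in Xist, 0 in tumours rich in B cell genes and 19 by limma-voom. All-gene shares in the same order were 50.9, 33.3, 23.3, 26.2, 56.7, 49.4, 1.61 and 72.6%, against 33.3% as reported. For the difference between genotypes (0) it was 2 with the enterocyte list, 3 without wt tumours 1, 4 and 7 and 12 by limma-voom. There the all-gene shares were 3.49, 19.3 and 51.8%, against 0.202% as reported. For wt tumours against wt non-tumour tissue (3) it was 1 by DESeq2, 8 with the enterocyte, 14 with the pan-epithelial and 6 with the B cell list, 1 without wt non-tumour libraries 1 and 4, 1 without the libraries low in Xist, 20 by limma-voom, 0 with only these groups fitted, and 1 to 3 when leaving out single libraries (1 without ex/ex non-tumour 1, 2 or 5 or wt non-tumour 3). All-gene shares in the same order were 7.13, 10.3, 16.2, 12.6, 2.71, 5.51, 37.5 and 1.29%. They were 2.98 to 5.17% when leaving out single libraries and 5.05% as reported. Leaving out single libraries, done for non-tumour libraries only, left the counts of the other comparisons at 0, 7 and 0. Ex/ex against wt tumours holds no such library, so its 7 could hardly move, and no tumour was left out singly.

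Called values changed sign in 17 cases. With the B cell list the log2 fold change in ex/ex tumours against ex/ex non-tumour tissue was 0.20 for Cyp2b10, 0.51 for Cyp2c23, 0.020 for Cyp2c65, 0.35 for Cyp2c66, 0.47 for Cyp3a13, 0.15 for Cyp3a59 and −0.41 for Cyp4f18. With the position lists it was 2.18 for Cyp2b10, 0.62 for Cyp2c23, 0.95 for Cyp2c65, 1.20 for Cyp2c66, 0.82 for Cyp3a13, 0.028 for Cyp2j9 and 0.97 for Cyp3a11. For Cyp26b1 it was −0.061 between ex/ex and wt tumours rich in B cell genes, and in wt tumours against wt non-tumour tissue 0.015 without libraries 1 and 4, and −2.02 to 0.16 when leaving out single libraries (0.16 without library 4). The B cell and position lists differ between the groups themselves, so their part and that of the group cannot be told apart, and the cause of the other changes was not tested. The enterocyte covariate, the omission of wt tumours 1, 4 and 7 or of ex/ex non-tumour libraries 3 and 4, and the fit to tumours rich in B cell genes were chosen after seeing the data.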
